A study of Mus musculus with 2 samples.

Results

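The transcription factors that set the fate of CD4+ helper T cells were followed by RNA sequencing in 2 libraries of sorted CD4+ cells from the mouse spleen, taken at day 14. The group comprised the 9 symbols Tbx21, Gata3, Rora, Bcl6, Maf, Prdm1, Runx1, Runx3 and Ahr, taken by name from the 24346 symbols of each expression table. All 9 were found, and all 9 had a mean level of 1 or more over both libraries, as did 10663 symbols in all. The libraries came from animals labelled HFD-MI treated with probucol, a lipid-lowering drug with antioxidant activity, and from untreated HFD-MI animals. There was 1 library per group, and animals without HFD-MI were not analysed here. The series title names remodelling after myocardial infarction and helper cells of the Th1 type. HypoE stands in both column headers without an explanation in the labels. Genotype, strain, sex, age, drug dose and the number of animals pooled could not be stated from the sources used here.

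Naive CD4+ T cells become specialised helper cells when a master transcription factor is induced and held. T-bet (Tbx21) directs Th1 cells, which make interferon gamma, GATA-3 (Gata3) directs Th2 cells and supports all CD4+ T cells, and Bcl6 directs follicular helper cells, which help B cells. ROR alpha (Rora) supports Th17 cells, the aryl hydrocarbon receptor (Ahr) senses ligands from diet and environment in Th17 and regulatory cells, and c-Maf (Maf) acts in several of these fates. Blimp-1 (Prdm1) opposes Bcl6 and marks effector and regulatory cells, while RUNX1 and RUNX3 bind DNA with the shared partner CBF beta and work beside T-bet and FOXP3. In the spleen several of these genes are not specific to T cells: germinal centre B cells use Bcl6, plasma cells Blimp-1, macrophages c-Maf, and natural killer cells T-bet and RUNX3.

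Levels are given as FPKM, fragments scaled to transcript length and to the size of the library, and so can be set side by side between genes. An estimated 9.62e+06 fragments lay in genes with probucol and 9.69e+06 untreated, PCR copies included. The intervals printed are 95% counting intervals on estimated fragment numbers. Only counting error enters them, so variation from mouse to mouse or from sort to sort is not included, and without replicates no p-value was computed. The summed level of 14 T cell markers was 6799 FPKM with probucol and 6923 untreated, none of them at 0. These values do not measure purity, and markers of other cells were also present. The neutrophil sum was 1079 against 959 FPKM. Its marker S100a8, at 591 and 536 FPKM, lay above Cd4, at 334 and 284 FPKM. The macrophage sum was 215 against 218 FPKM, the B cell sum 101 against 56.0 FPKM and the erythroid sum 296 against 980 FPKM. With probucol 14289 symbols were above 0, against 16876 untreated. Olfactory receptor genes, which T cells are not known to use, were above 0 in 49 of 1102 cases with probucol and 303 untreated.

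In both libraries Gata3 was the most abundant of these factors and Ahr the least, with a spread of 61.4-fold with probucol and 49.1-fold untreated. Gata3 stood at 53.6 FPKM (51.0 to 56.3) with probucol and 63.9 FPKM (61.1 to 66.9) untreated. Runx3 came next, at 30.4 FPKM (28.4 to 32.6) and 20.95 FPKM (19.3 to 22.8), and Tbx21 followed at 16.2 FPKM (14.5 to 17.9) and 15.9 FPKM (14.3 to 17.6). These first ranks were the same in both libraries. With probucol the order went on with Runx1, Bcl6, Maf, Prdm1, Rora and Ahr, and untreated with Runx1, Bcl6, Prdm1, Rora, Maf and Ahr. Neighbouring intervals overlapped for Tbx21 and Runx1 and for Prdm1 and Rora with probucol. Untreated, they overlapped from Bcl6 to Prdm1, from Prdm1 to Rora and from Rora to Maf, while Bcl6 and Prdm1 both lay above the interval of Maf. Among all genes compared, Gata3 lay at percentile 80.0 of level with probucol and 83.1 untreated, Tbx21 at 52.2 and 52.4, and Ahr at 1.80 and 4.27. In the probucol library 8 of the 9 factors exceeded every olfactory receptor gene, and in the untreated library those 8 exceeded all but at most 1. Ahr was exceeded by 5 and 16 of the 1102 olfactory genes.

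**Figure D1:**
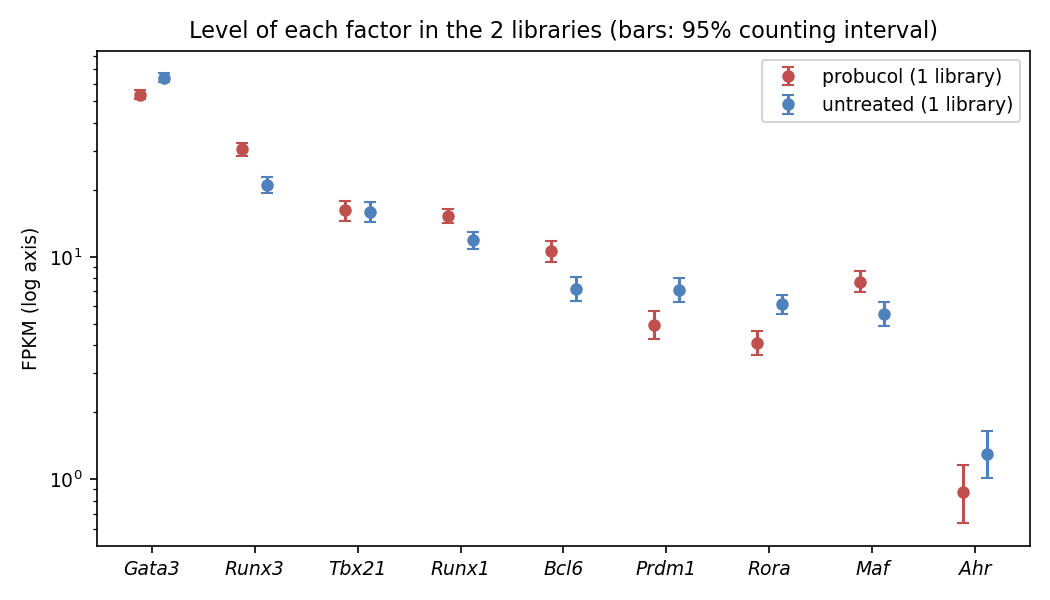
Level of each factor in FPKM (logarithmic vertical axis) in the probucol library (red) and the untreated library (blue), ordered by the untreated level; points are single libraries and bars 95% counting intervals. Gata3 is highest in both libraries at 53.6 and 63.9 FPKM, and Ahr lowest at 0.872 and 1.30 FPKM.

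Between libraries the factors differed in both directions. Bcl6, Runx3, Maf and Runx1 were higher with probucol, Rora, Prdm1, Ahr and Gata3 were lower, and Tbx21 was level. On FPKM + 1, which understates differences of low genes, thresholds of the same fold were set at 25% higher and 20% lower. There, 4 of 9 were at least 25% higher, as were 17.8% of all 10663 genes compared, and 2 of 9, Rora and Prdm1, were at least 20% lower, as were 14.1% of all genes. None was past 2-fold, as were 3.60% of all genes. The counting interval of the ratio left out 1 for 8 of 9 factors, above 1 for 4 and below 1 for 4. Among all genes with a length it left out 1 for 51.8%, above 1 for 28.3% and below 1 for 23.6%, so an interval that leaves out 1 was common. The median log2 ratio of the factors was 0.024, beside 0.017 for all genes, while the median of the absolute log2 ratios was 0.42, beside 0.21 for all genes and 0.18 for genes at a mean of 5 FPKM or more. The count of higher factors was 2, Bcl6 and Runx3, with pseudocount 5 or once the trend of the ratios on transcript length was removed, and the count of lower factors was then 0 and 3. Of all genes 9.28% were higher and 8.16% lower with pseudocount 5, and 14.7% and 14.4% with the length trend removed. In bulk RNA, fewer cells of a type and less RNA per cell cannot be told apart, here or in any result that follows.

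**Figure D2:**
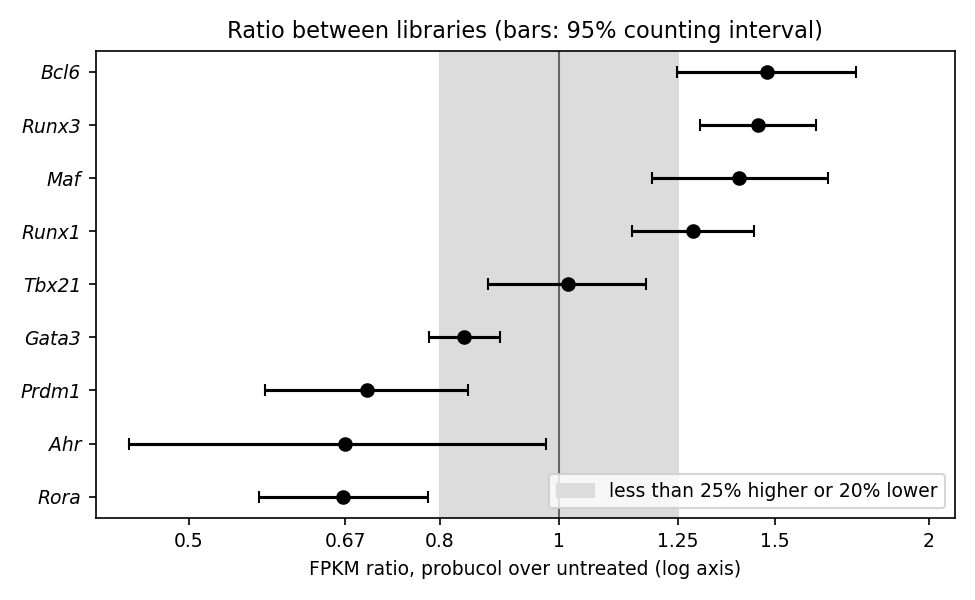
FPKM ratio of probucol over untreated for each factor (logarithmic horizontal axis), with 95% counting intervals as bars and the range under both thresholds shaded. Bcl6 and Runx3 lie furthest right at 1.48 and 1.45, Tbx21 sits at 1.02, and Rora, Ahr and Prdm1 lie left at 0.668, 0.669 and 0.699.

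**Figure D3:**
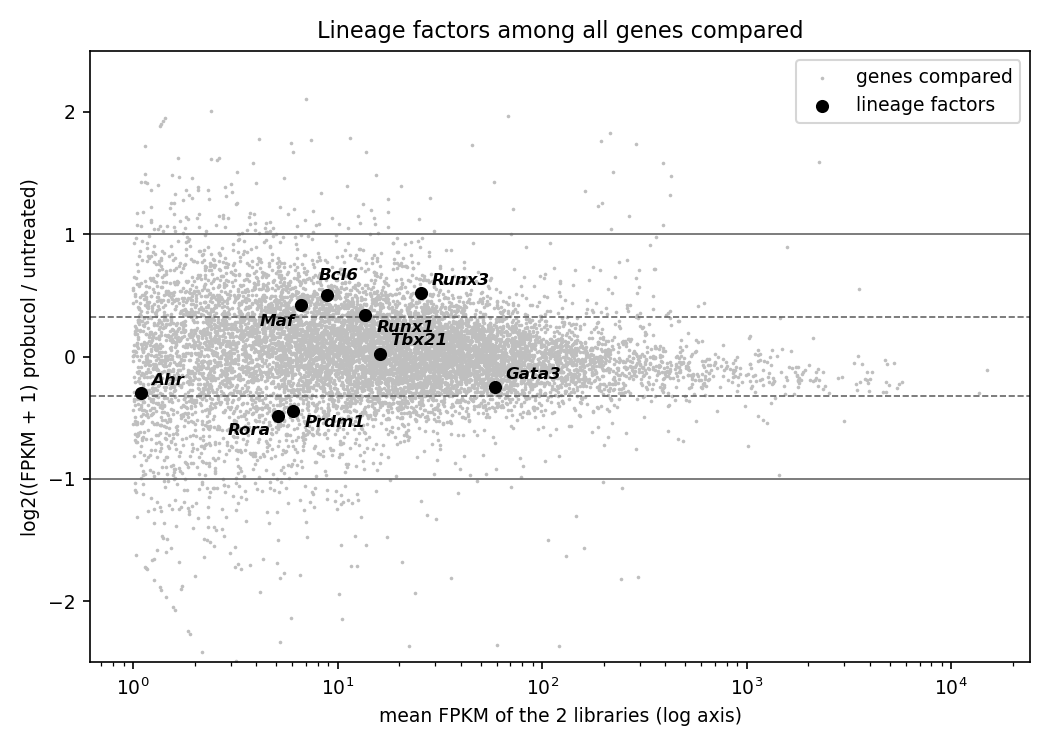
Each grey point is 1 of 10663 genes, at its mean FPKM (logarithmic horizontal axis) and its log2 ratio on FPKM + 1; black points are the 9 factors, dashed lines mark 25% higher and 20% lower and solid lines 2-fold, and 59 genes lie beyond the vertical range. The factors lie within the 2-fold lines, Runx3 highest at 0.52 and Rora lowest at -0.48.

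T-bet, the Th1 master regulator, did not separate the libraries. Tbx21 (chromosome 11, 97098071 to 97115331, minus strand, mm10) was at 16.2 and 15.9 FPKM on about 366 and 364 fragments, a ratio of 1.02 (0.876 to 1.18). That interval leaves room for a difference of up to 1.18-fold upward and 1.14-fold downward. Its closest relative in T cells, the T-box factor Eomes, was at 2.77 and 4.497 FPKM, 1.62-fold lower (1.23 to 2.16), and Tbx6 was at 2.40 and 0.994 FPKM. Tbx21 made up 75.6% of the summed level of 7 T-box genes with probucol and 74.0% untreated, and Eomes 13.0% and 20.9%. Ifng, the cytokine T-bet switches on, was likewise close, at 0.951 times its untreated level (0.761 to 1.19). Most other Th1 genes were lower beside the level Tbx21. Of 17 listed, 16 were compared, 13 were lower and 3 higher, and the median log2 ratio was -0.29. At least 20% lower were 8, as were 14.1% of all genes, and at least 25% higher 1, as were 17.8%. The T cell chemokine gene Ccl5 was at 131 and 459 FPKM and the granule gene Nkg7 at 158 and 333 FPKM, while Fasl, a death ligand, was at 16.5 and 16.5 FPKM and Tnf at 12.1 and 7.46 FPKM. Natural killer cells also hold T-bet, Ccl5 and Nkg7. Of 11 natural killer and innate lymphoid markers, 7 were compared, with 5 at least 20% lower and 1 at least 25% higher, and a median log2 ratio of -0.54. Their summed level was 177 against 206 FPKM, most of it from Il7r, which CD4+ T cells also express, at 119 and 151 FPKM. The 1 at least 25% higher was Prf1, at 49.9 and 36.3 FPKM on about 998 and 733 fragments, a ratio of 1.37 (1.249 to 1.51). Among the lower ones, Klrd1 was at 1.22 and 6.22 FPKM on about 8 and 43 fragments. Gzma was at 0.150 and 3.28 FPKM on about 1 and 24, and Klrk1 at 0.785 and 2.38 FPKM on about 8 and 25. Ncr1 was at 1.04 and 0.0795 FPKM on about 13 and 1, and Klra8 at 0 in both libraries. The part of these cells in the result was not tested.

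GATA-3 was lower with probucol by a small margin. Gata3 (chromosome 2, 9857078 to 9890034, minus strand), at 53.6 and 63.9 FPKM on about 1602 and 1931 fragments, was 1.19-fold lower (1.12 to 1.28), at percentile 18.7 of all ratios. The intervals of its 2 levels did not overlap, yet the difference stayed under the 20% threshold. The other GATA gene above 1 FPKM was Gata1, a factor of red cell and platelet precursors, at 8.46 and 5.13 FPKM, and Gata3 made up 86.1% and 92.2% of the GATA sum. Of 13 Th2 genes 7 were compared, with 6 lower and 1 higher, and a median log2 ratio of -0.35. At least 20% lower were 4, beside 14.1% of all genes, and at least 25% higher 1, beside 17.8%. The chemokine receptor genes Ccr8, at 40.8 and 78.0 FPKM, and Ccr4, at 5.13 and 8.79 FPKM, were among the lower ones, and regulatory T cells carry both receptors. Il1rl1, the receptor of interleukin-33, was at 1.52 and 0.667 FPKM. The cytokine gene Il4 was at 7.74 and 7.79 FPKM, which is a ratio of 0.993 (0.565 to 1.68), and Il5, Il13 and Il9 were listed at 0 in both libraries. Stat6, which acts upstream of GATA-3 after interleukin-4, was 1.20-fold higher (1.15 to 1.247), at 150 and 125 FPKM.

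Bcl6 and its opponent Prdm1 showed the widest shift of balance among the 6 pairs of factors compared. Bcl6 (chromosome 16, 23965052 to 23988852, minus strand) was at 10.6 FPKM (9.50 to 11.8) with probucol and 7.17 FPKM (6.29 to 8.14) untreated, 1.48-fold higher (1.248 to 1.75) on about 349 and 239 fragments. Prdm1 (chromosome 10, 44437177 to 44528501, minus strand) was at 4.96 FPKM (4.27 to 5.71) and 7.09 FPKM (6.28 to 7.99), 1.43-fold lower (1.19 to 1.73) on about 188 and 272 fragments. The pair was level in the untreated library and apart in the probucol library. The ratio of Bcl6 to Prdm1 was 2.14 with probucol and 1.01 untreated, which differ 2.11-fold (1.64 to 2.73). A ratio within a library does not depend on how the libraries were scaled to each other. Bcl6 lay at percentile 91.8 of all ratios and Prdm1 at 8.96.

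Genes tied to the follicular helper fate were mostly close between libraries. Of 15 listed, 13 were compared, with 8 higher and 5 lower, and a median log2 ratio of 0.041. At least 25% higher was 1, beside 17.8% of all genes, and at least 20% lower 1, beside 14.1%. Cxcr5, the receptor that guides cells into B cell follicles, was at 45.9 and 36.2 FPKM, 1.27-fold higher (1.16 to 1.38). Sostdc1 was 1.63-fold lower (1.43 to 1.86), at 23.6 and 38.6 FPKM, and the inhibitory receptor gene Pdcd1 was at 173 and 206 FPKM. Il21, the helper cytokine of this fate, had a ratio of 0.898 (0.722 to 1.12). The follicular factor Ascl2 was at 8.71 and 5.90 FPKM, 1.48-fold higher (1.06 to 2.11), from about 87 and 59 fragments. B cells also express Bcl6 and Cxcr5. Of 14 B cell markers 10 were compared, 9 were higher with probucol and 6 of those at least 2-fold. Among all genes 3.60% differed at least 2-fold in either direction. Single markers ranged from 0 to 32.8 FPKM with probucol and from 0 to 29.9 untreated, and the defining factor gene Pax5 was at 0 in both libraries. Plasma cells express Prdm1. Of their 6 markers 4 were compared, all higher with probucol where Prdm1 was lower, with a median log2 ratio of 0.40. The 6 summed to 104 and 88.4 FPKM, most of it from Xbp1 at 66.2 and 63.0 FPKM. Mzb1 was at 7.04 and 3.004 FPKM and Jchain at 27.6 and 18.9 FPKM, while Sdc1 was at 0.141 and 0.561 FPKM and Tnfrsf17 at 0 with probucol. The part of these cells in the Bcl6 and Prdm1 values was not tested.

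Sequence upstream of RefSeq start sites is shown for Bcl6 and Prdm1, whose balance differed most of the 6 pairs, for Runx3, with a ratio near that of Bcl6, and for Tbx21, which was level. Windows were found for 7 of the 9 factors, and the 250 bases before each start were read 5′ to 3′ on the gene's strand (GRCm38.p6, the assembly of mm10). Capitals mark matches, on either strand, to short letters known to be bound by the factors themselves. The letters searched for RUNX proteins were TGTGGT. Those for T-box proteins such as T-bet were GGTGTGA. Those for GATA proteins were AGATAA. A further word for GATA proteins was TGATAA. The half-site of ROR receptors was searched as AGGTCA. The core of the AHR element was searched as GCGTG. The half-site of MAF proteins was searched as TGCTGA. The BCL6 element was searched as TTCCTNGAA. The Blimp-1 element was searched as GTGAAAG. Matches to 1 motif did not overlap those to another in the windows shown.
Tbx21, chr11:97115332-97115581, minus strand: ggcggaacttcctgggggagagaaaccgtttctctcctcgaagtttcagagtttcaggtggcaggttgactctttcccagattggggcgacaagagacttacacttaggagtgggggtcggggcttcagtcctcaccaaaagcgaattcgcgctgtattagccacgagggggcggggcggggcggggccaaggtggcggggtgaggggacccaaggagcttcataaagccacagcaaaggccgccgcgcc
Bcl6 second start, chr16:23981284-23981533, minus strand: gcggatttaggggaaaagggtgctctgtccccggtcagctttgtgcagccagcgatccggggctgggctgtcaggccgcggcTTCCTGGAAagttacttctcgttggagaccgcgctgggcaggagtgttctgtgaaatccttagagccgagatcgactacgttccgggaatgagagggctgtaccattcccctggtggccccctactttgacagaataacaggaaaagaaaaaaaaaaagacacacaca
Prdm1, chr10:44458749-44458998, minus strand: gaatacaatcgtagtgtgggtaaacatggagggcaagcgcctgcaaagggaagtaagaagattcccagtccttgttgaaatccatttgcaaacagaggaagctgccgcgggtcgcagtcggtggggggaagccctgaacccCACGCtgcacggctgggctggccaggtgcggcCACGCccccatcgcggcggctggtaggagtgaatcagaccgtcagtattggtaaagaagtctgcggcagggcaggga
Runx3 first start, chr4:135120448-135120644, plus strand: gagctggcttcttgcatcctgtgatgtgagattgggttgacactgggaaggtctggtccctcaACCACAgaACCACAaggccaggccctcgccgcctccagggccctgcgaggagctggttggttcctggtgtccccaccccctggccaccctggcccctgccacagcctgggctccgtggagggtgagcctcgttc

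The Bcl6 window held 1 match to the letters of BCL6 itself, at positions -168 to -160 from the start, a motif that 1.31% of all 32851 windows hold. The Runx3 window, printed without the bases that lie in an exon of another gene, held 2 RUNX matches at positions -134 to -129 and -126 to -121, letters found in 14.1% of windows. The other window of Bcl6, next to the start of the annotated gene, and the other window of Runx3 held none of the letters searched. For both genes the start printed is thus the one whose window held a match. Several motifs were searched in the 10 windows of the factors, so the share for 1 motif does not give how often any match occurs. Prdm1 held 2 matches to the AHR letters, which 28.2% of windows hold. The Tbx21 window held none of the letters searched, which says only that they are not in these 250 bases. The 10 windows of the factors held a median of 17.5 CpG pairs, from 2 to 38, beside 6 in all windows, and a median GC content of 61.0% beside 52.4%. A match is a description of letters and no measure of binding.

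c-Maf and Blimp-1 are both known to act on interleukin-10 and inhibitory receptor genes, and their transcripts went opposite ways. Maf (chromosome 8, 115682942 to 115707794, minus strand) was at 7.74 FPKM (6.96 to 8.59) with probucol and 5.52 FPKM (4.86 to 6.24) untreated, 1.40-fold higher (1.19 to 1.66), at percentile 88.1 of all ratios. With the trend on transcript length removed its fold on FPKM + 1 was 1.24. The ratio of Maf to Gata3 was 0.144 with probucol and 0.0864 untreated, 1.67-fold apart (1.40 to 2.003). Of 14 genes linked to Blimp-1 or c-Maf, all were compared, 12 were lower and 2 higher, with a median log2 ratio of -0.16. At least 20% lower were 4, beside 14.1% of all genes, and at least 25% higher 1, beside 17.8%. Il10 was at 4.20 and 3.82 FPKM, with a ratio of 1.10 (0.712 to 1.72). The inhibitory receptor gene Tigit was at 76.0 and 108 FPKM, Havcr2 at 0.996 and 2.66 FPKM, and Klrg1, a marker of late effector cells, at 44.2 and 72.9 FPKM. Macrophages also express Maf. Of their 15 markers 11 were compared, with 6 higher and 5 lower, 3 at least 25% higher and 2 at least 20% lower, and a median log2 ratio of 0.28. The summed level was 215 against 218 FPKM, most of it from Lyz2 at 125 and 132 FPKM, and single markers ranged from 0 to 125 and from 0.176 to 132 FPKM. The 3 at least 25% higher were Csf1r, at 3.75 and 1.85 FPKM, Vcam1, at 8.11 and 4.73 FPKM, and C1qb, at 20.2 and 13.9 FPKM. The 2 at least 20% lower were Hmox1, at 17.4 and 26.9 FPKM, and Cd5l, at 5.48 and 8.46 FPKM. Marco was at 0 with probucol. The part of macrophages in the Maf value was not tested.

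Rora, which encodes a nuclear receptor that takes part in the Th17 program, was low in both libraries and lower with probucol. Rora (chromosome 9, 68653786 to 69388246, plus strand) was at 4.09 FPKM (3.62 to 4.62) with probucol and 6.12 FPKM (5.55 to 6.76) untreated, 1.497-fold lower (1.28 to 1.75). It had the lowest log2 ratio of the 9 factors, at percentile 7.61 of all ratios. The Th17 cytokine gene Il17a was listed at 0 with probucol and at 0.207 FPKM untreated, from about 2 fragments. Of 12 Th17 genes only 5 reached a mean of 1 FPKM, 2 of them higher and 3 lower. At least 20% lower was 1, Tmem176b at 9.02 and 17.9 FPKM, and none was at least 25% higher. Among all genes these shares were 14.1% and 17.8%. The chemokine receptor Ccr6 was at 13.2 and 14.1 FPKM. Rora is also known in Th2-type and innate lymphoid cells. The ratio of Tbx21 to Rora was 3.95 with probucol and 2.59 untreated, 1.52-fold apart (1.22 to 1.89).

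Ahr (chromosome 12, 35497974 to 35535038, minus strand) was the scarcest factor. It stood at 0.872 FPKM (0.634 to 1.16) and 1.30 FPKM (1.02 to 1.65) on about 46 and 70 fragments, 1.49-fold lower (1.02 to 2.24). The intervals of its levels overlapped, and on FPKM + 1 the difference was under that threshold. Of the 12 genes listed as AHR targets 5 were compared, 3 higher and 2 lower, with 1 at least 25% higher and 0 at least 20% lower. Those shares were 17.8% and 14.1% among all genes. Tiparp, a direct target that limits the receptor, was at 7.14 and 7.82 FPKM, giving a ratio of 0.913 (0.775 to 1.08). The classic target Cyp1a1 was at 0.748 and 0.662 FPKM, and Ahrr, the receptor's repressor, was at 0 in both libraries. Arnt, the protein with which the receptor binds DNA, was level at 14.7 and 14.7 FPKM, and Hsp90ab1, the chaperone that holds the free receptor, was at 2051 and 1104 FPKM, 1.86-fold higher (1.83 to 1.89).

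Both RUNX genes of T cells were higher with probucol. Runx3 (chromosome 4, 135120652 to 135177990, plus strand) was at 30.4 and 20.95 FPKM on about 805 and 560 fragments, 1.45-fold higher (1.30 to 1.62). Runx1 (chromosome 16, 92601466 to 92826149, minus strand) was at 15.2 FPKM (14.1 to 16.4) and 11.9 FPKM (10.9 to 12.9), 1.29-fold higher (1.15 to 1.44). Runx2, best known from bone, was at 2.48 and 2.44 FPKM, for a ratio of 1.01 (0.674 to 1.51). The summed level of the 3 genes was 48.1 and 35.3 FPKM, of which Runx3 made up 63.2% and 59.4%. Runx3 was the more abundant of the pair in both libraries: its ratio to Runx1 was 1.997 with probucol and 1.77 untreated, 1.13-fold apart with an interval that holds 1 (0.964 to 1.32). Cbfb, the shared partner of the family, was 1.15-fold higher (1.05 to 1.246), at 45.9 and 40.0 FPKM. Zbtb7b, which encodes ThPOK, the factor that opposes RUNX3 when CD4+ and CD8+ lineages part, was at 12.6 and 8.11 FPKM, 1.55-fold higher (1.33 to 1.80). Of the CD8 genes, which RUNX3 is known to favour, Cd8a was at 0.139 and 0.276 FPKM and Cd8b1 at 15.9 and 19.6 FPKM. Myeloid cells also express RUNX genes. All 10 neutrophil markers were compared and none was at 0. With probucol 9 were higher, 5 of them at least 25% higher, as were 17.8% of all genes. Their summed level was 1079 against 959 FPKM, with single markers from 1.31 to 591 and from 0.828 to 536 FPKM, and Elane was at 12.0 and 2.80 FPKM and Mpo at 10.9 and 4.23 FPKM. The part of these cells in the RUNX values was not tested. With the length trend removed, Runx3 was 1.41-fold and Runx1 1.17-fold higher on FPKM + 1.

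Set against each other within a library, the factors gave a balance for 6 pairs known to oppose or accompany each other. The interval of the difference between libraries left out 1 for 5 of the 6, the exception being Runx3 to Runx1. No share over other gene pairs was computed. Intervals of single genes already left out 1 for 8 of the 9 factors and for 51.8% of all genes with a length. The ratio of Tbx21 to Gata3 was 0.302 with probucol and 0.248 untreated, 1.21-fold apart (1.03 to 1.43), which came with the lower Gata3 since Tbx21 was level. The ratio of Tbx21 to Bcl6 was 1.53 and 2.22, 1.45-fold lower with probucol (1.16 to 1.82). In each library Gata3 thus exceeded Tbx21 and Tbx21 exceeded Bcl6.

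**Figure D4:**
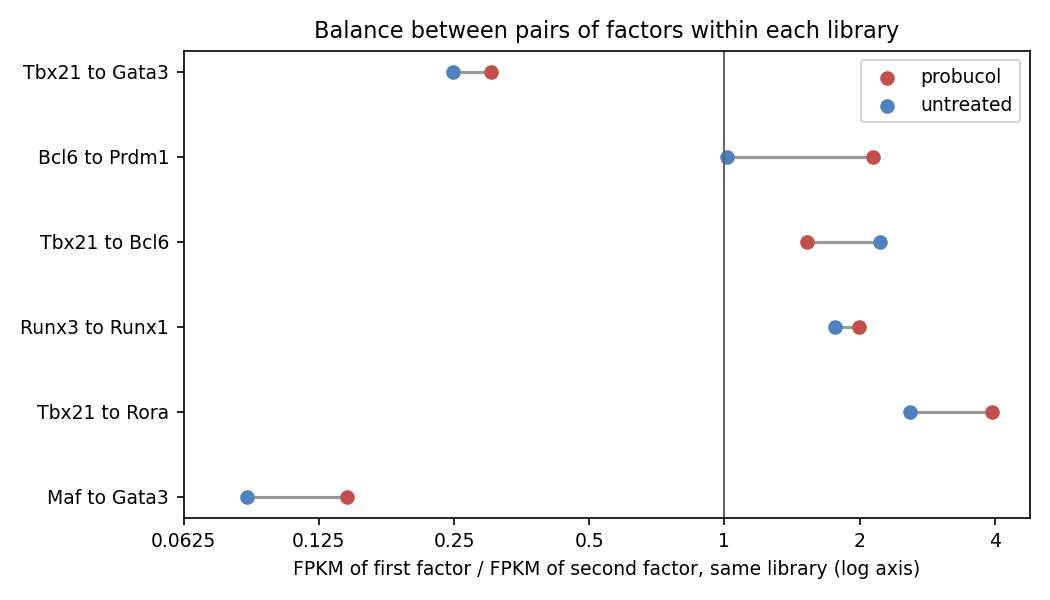
FPKM of the first factor divided by FPKM of the second within the same library (logarithmic horizontal axis), red for probucol and blue for untreated, 1 library each; the grey segment joins both values and the vertical line marks equal levels. Bcl6 to Prdm1 spans the widest distance, from 1.01 to 2.14, and Runx3 to Runx1 the narrowest, from 1.77 to 1.997.

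The wider set of helper cell factors differed between libraries in both directions. Of 47 such factors 43 were compared, 16 higher and 27 lower, with a median log2 ratio of -0.10. At least 25% higher were 9, beside 17.8% of all genes, and at least 20% lower 8, beside 14.1%. The most abundant were Junb, at 1145 and 1134 FPKM, Tcf7, a factor of naive and memory cells, at 575 and 636 FPKM, and Ets1, at 353 and 387 FPKM, each far above Gata3, the highest lineage factor. Besides Zbtb7b and Ascl2, Id3, which restrains E proteins, was 1.41-fold higher (1.29 to 1.53), at 124 and 87.9 FPKM. The lowest ratios, taken on FPKM + 1, were those of Pparg, at 0.835 and 3.82 FPKM, Zbtb32, at 11.4 and 19.3 FPKM, and Bhlhe40, which supports cytokine production in effector cells, at 14.4 and 22.5 FPKM. Foxp3, the factor of regulatory T cells, was at 67.5 and 70.3 FPKM, in the same range as Gata3. Stat4, which relays interleukin-12 in Th1 cells, was at 78.5 and 84.3 FPKM, with a ratio of 0.931 (0.876 to 0.989).

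Genes for partner proteins of the factors were compared in the same way. Of 21 listed 20 were compared, 16 higher and 4 lower, with a median log2 ratio of 0.17, beside 0.017 for all genes. At least 25% higher were 4, as were 17.8% of all genes, and at least 20% lower 0, as were 14.1%. The share of all genes simply higher was not counted. Ncor1, a corepressor that Bcl6 recruits, was 1.41-fold higher (1.34 to 1.49), at 46.2 and 32.7 FPKM, and Tle1, a corepressor of RUNX proteins, 1.47-fold higher (1.24 to 1.77), at 8.95 and 6.07 FPKM. Bcor, another Bcl6 corepressor, was at 4.29 and 4.92 FPKM, which gave a ratio of 0.871 (0.741 to 1.02). Of 33 relatives of the factors by family, 15 were compared, with 4 at least 25% higher and 2 at least 20% lower.

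**Figure D5:**
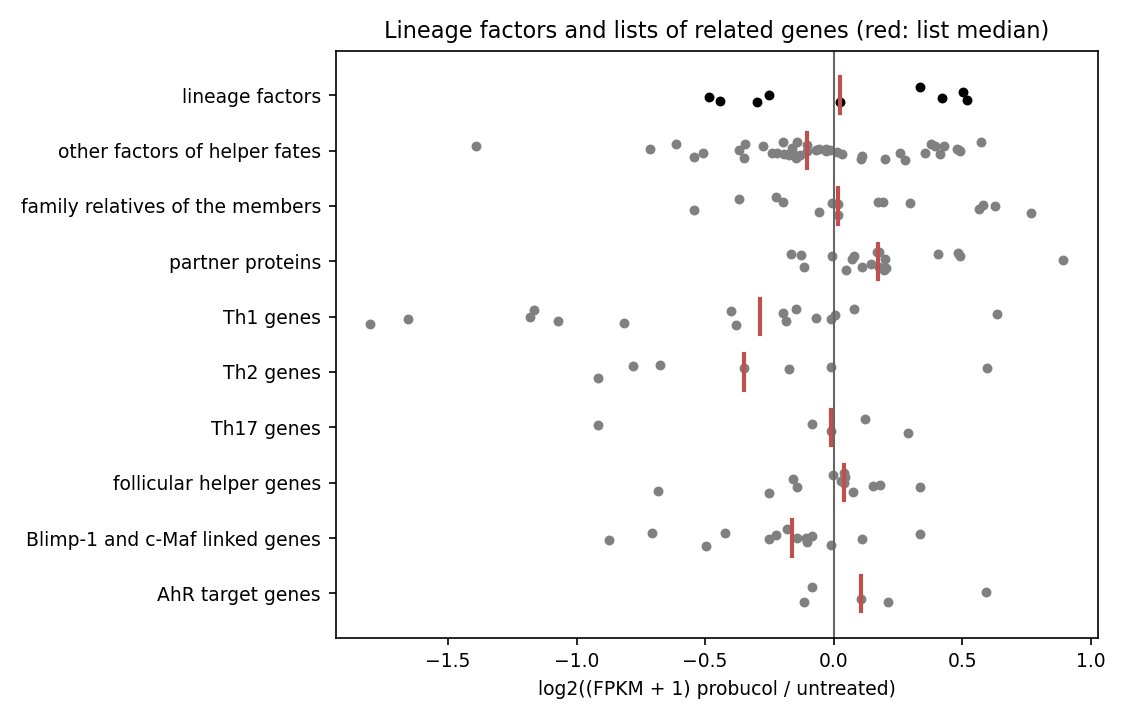
Each point is 1 compared gene at its log2 ratio of probucol over untreated on FPKM + 1 (horizontal axis), in rows for the lineage factors (black) and 9 lists of related genes (grey), with the median of each row in red; vertical scatter within a row carries no value. The row medians run from -0.35 for the Th2 list to 0.17 for the partner proteins, and the lineage factors split around 0.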

How the data were processed

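RNA of sorted splenic CD4+ T cells was measured in 2 libraries made with SMART-Seq HT cDNA and Nextera kits, per the labels' protocols. The authors deposited FPKM, a single value for each symbol, per the file headers. The submitters' processing notes list Cuffdiff 2.2.1, TopHat2 2.1.1, Bowtie2 and build mm10 with no role or order. The gene annotation and the scaling between libraries were not given in the sources used here. No strand setting is stated, so antisense reads cannot be told apart. By GENCODE M21 exons, Gata3, Rora, Bcl6, Maf, Runx1 and Ahr share between 21 and 440 bases with other genes.

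The members and lists were chosen with earlier results of these data known. Fragments were estimated from the steps in low FPKM values of genes with 1 transcript of 800 to 10000 bp. After 210 bp were subtracted from each length, a fragment was worth 0.101 FPKM at 1 kb in the probucol library and 0.0995 in the other, and 76.0% and 75.4% of low values lay within 0.1 of a whole number, where 20% would by chance. Lengths were the median of each gene's coding transcripts in the GENCODE basic set. Levels got exact Poisson, ratios exact Clopper-Pearson and within-library ratios exact conditional intervals (scipy 1.17.1). Genes at a mean FPKM of 1 or more were compared on log2(FPKM + 1). The scripts were tested on simulated data. Named genes were all 9 factors, from each list the 3 highest and 3 lowest ratios and the 3 highest levels, and fixed lineage factors and cytokines, fewer being printed for length. Others (Runx2, Cbfb, Cyp1a1, Ahrr and single markers) were chosen after their values were seen. Some related genes are not reported here. Of 11 erythroid markers 9 were found.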

Additional observations from a re-analysis of the deposited data

How the results depend on the processing

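The counts of factors at least 25% higher or 20% lower depended on the scale. With pseudocount 5 in place of 1, 2 factors were higher and 0 lower, beside 9.28% and 8.16% of all genes. With the median ratio of genes of like transcript length removed, in 20 bins, an alternative chosen after seeing the data, 2 were higher and 3 lower, beside 14.7% and 14.4% of all genes. Genes with transcripts as long as that of Rora had a median log2 ratio of 0.22. Pseudocount 0.1, equal FPKM sums, centring on the median gene and scaling to the T cell markers kept both counts within 1.5 times of those reported. A minimum mean of 5 FPKM, or no minimum, left both counts as reported. Changing the minimum alters no ratio and drops at most Ahr, which neither count held, so it could not move them. No factor passed 2-fold in any of these 8 alternatives. Fragment numbers were also taken from the longest or the shortest coding transcript. Each interval of the 9 ratios and 6 pairs then stayed on the same side of 1, or across it, as reported. Tbx21, Gata3, Bcl6 and Ahr have 1 coding transcript each in the set used. Their intervals, and those of Tbx21 to Gata3 and Tbx21 to Bcl6, could therefore not change. Among the 9 factors, depth limits Ahr most. It also lay below 5 olfactory receptor genes with probucol and 16 untreated. The 95th percentile of those genes differed, at 0 FPKM with probucol and 0.694 FPKM untreated. No paired analysis was possible because each group has 1 library.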

Other observations

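Among relatives of the factors, Gata1 was 1.65-fold higher with probucol (1.254 to 2.18), at 8.46 and 5.13 FPKM. The 8 erythroid markers compared were all lower, each past the lower threshold, as were 14.1% of all genes. Klf1, a red cell factor, was at 0.983 and 2.41 FPKM. Of 4 platelet markers, which summed to 5.28 and 2.85 FPKM, 2 were compared, 1 higher and 1 lower. Pf4 was at 2.64 and 0.526 FPKM on about 8 and 2 fragments, and Ppbp at 1.15 and 1.26 FPKM on about 10 and 11. The part of red cell and platelet precursors in the Gata1 value was not tested. Prdm2, a relative of Prdm1, was 1.59-fold higher (1.39 to 1.82), at 8.08 and 5.07 FPKM, where Prdm1 itself was lower. Tbx6, a T-box factor known from the early embryo, was at 2.40 and 0.994 FPKM on about 34 and 14 fragments. Rorb, the ROR gene of the nervous system, was listed at 0 with probucol and at 0.280 FPKM untreated, on about 24 fragments. The 95th percentile of the olfactory receptor genes was 0 FPKM with probucol and 0.694 FPKM untreated, which is above that Rorb value. Klf1, Rorb, Pf4 and Ppbp were chosen after their values were seen.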
